A study of Homo sapiens with 4 samples.

Results

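The genes described here are 10 targets of the transcription factor SRF or of the coactivator YAP: ACTA2, TAGLN, CNN1, CNN2, MYL9, TPM1, TPM2, CTGF, CYR61 and ANKRD1. They were picked by name, and all 10 have an entry among the 20329 genes analysed (CTGF and CYR61 carry these older symbols; their present names are CCN2 and CCN1). Messenger RNA was measured in 2 lines derived from MDA-MB-231, an established triple-negative breast cancer line: BM1 (1833), labelled as a derivative from bone metastasis, and LM2 (4175), labelled as one from lung metastasis. In each line, cells that stably expressed a non-specific shRNA from a lentiviral vector served as control, and cells with a stably expressed shRNA against hnRNPM, an RNA-binding splicing regulator, served as knockdown. There was 1 polyA-selected library per line and treatment, 4 in all. The labels do not say whether the shRNA lines were clones or pools, nor how many different shRNAs were used. The title of the series names ESRP1, another splicing regulator, beside hnRNPM and sets both in the epithelial-mesenchymal transition, in which the actin cytoskeleton is rebuilt.

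SRF binds a short sequence called the CArG box. Its coactivators of the MRTF family are held by monomeric actin and are freed when actin polymerises, so that genes for actin-binding and contractile proteins follow the state of the cytoskeleton. YAP and its relative TAZ are kept out of the nucleus by the Hippo kinases; in the nucleus they join TEAD factors on DNA and raise genes such as CTGF, CYR61 and ANKRD1. Both routes respond to cell shape and stiffness, and several genes are targets of both. MDA-MB-231 cells are known to lack functional NF2, an upstream part of the Hippo pathway.

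The promoters of 7 of the 10 genes had an entry in the RefSeq table (GRCh38.p14; TAGLN, MYL9 and CYR61 were not among them). In the 250 bases before each annotated start, the TEAD core GGAATG was searched on both strands (as GGAATG or CATTCC). The CArG box was searched by its exact consensus alone (CC, a core of only A or T, then GG), which reads the same on both strands. The 3 promoters below are shown because they hold a CArG box or at least 2 TEAD cores, marked in capitals; the 2 patterns did not overlap in them. The stretches are chr6:131951373-131951622 (minus strand, CTGF), chr10:90921088-90921337 (minus strand, ANKRD1) and chr19:1026358-1026607 (plus strand, CNN2), each written 5′ to 3′ up to the base before the start.
CTGF: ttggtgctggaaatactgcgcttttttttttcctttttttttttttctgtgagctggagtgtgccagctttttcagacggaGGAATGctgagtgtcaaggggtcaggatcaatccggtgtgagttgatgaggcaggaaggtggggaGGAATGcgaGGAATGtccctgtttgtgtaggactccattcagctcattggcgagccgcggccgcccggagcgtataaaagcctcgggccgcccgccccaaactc
ANKRD1: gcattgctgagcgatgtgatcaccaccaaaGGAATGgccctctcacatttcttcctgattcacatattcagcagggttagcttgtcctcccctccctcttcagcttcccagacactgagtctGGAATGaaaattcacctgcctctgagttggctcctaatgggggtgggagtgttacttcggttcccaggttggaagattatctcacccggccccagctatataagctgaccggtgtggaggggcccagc
CNN2: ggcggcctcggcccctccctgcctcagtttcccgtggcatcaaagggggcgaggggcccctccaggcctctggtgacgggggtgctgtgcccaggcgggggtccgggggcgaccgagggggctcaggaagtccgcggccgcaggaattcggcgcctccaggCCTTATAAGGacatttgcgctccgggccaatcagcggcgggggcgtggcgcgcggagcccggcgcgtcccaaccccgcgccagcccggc
CTGF had 3 TEAD cores, which began 169, 104 and 95 bases before the start. ANKRD1 had 2, which began 220 and 128 bases before it. Of all 35116 windows of this length, 11.9% held at least 1 TEAD core, 0.94% at least 2 and 0.0826% at least 3. The CArG box of CNN2 began 89 bases before the start, and 1.16% of all windows held one. Of the 2 ACTA2 windows, 1 held 1 TEAD core, and the windows of CNN1, TPM1 and TPM2 held neither pattern. The ACTA2 window with the TEAD core also held CCCTATATGG and CCTTGTTTGG. These have a C or a G in the core, so the search for the exact CArG consensus did not count them. These matches describe letters in a window and show no binding.

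The targeted gene was checked first. HNRNPM measured 171 FPKM (a fragment density scaled to transcript length and library size) in control and 28.4 in knockdown cells of BM1, against 132 and 20.3 in LM2. The knockdown libraries thus held 16.6% and 15.4% of their controls, and limma gave an adjusted p of 0.00318 over both lines. Low values of single-transcript genes fell on steps that put the libraries at about 22800000 to 41500000 fragments if the larger step is 1 fragment, or at 45600000 to 83000000 fragments if a smaller step is. Genes of the mitochondrial genome took 8.80% and 9.31% of the summed FPKM in the controls and 11.8% and 12.8% in the knockdowns; the part of this shift in the changes below was not tested. VIM, a mesenchymal marker of this line, lay between 1160 and 2354 FPKM, ERBB2 between 13.5 and 21.9 and the epithelial marker EPCAM between 2.999 and 4.59; ESR1 and PGR were not analysed here. The replicates of a treatment are the 2 lines and the replicates of a line are the 2 treatments. Every p-value below thus rests on 4 libraries only, with the spread of each gene moderated over all genes.

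Most of the 10 genes were abundant, and their levels spanned more than 3 orders of magnitude. The mean over the 4 libraries was highest for CYR61 (532 FPKM), ANKRD1 (305) and CTGF (133), the 3 targets of YAP and TEAD. Of the tested genes, 99.3%, 98.7% and 96.6% had a lower mean than these. The actin-binding genes followed with CNN2 (67.9), TPM1 (58.7), MYL9 (45.2), TAGLN (12.7) and TPM2 (4.54). ACTA2 (0.653) and CNN1 (0.455), which mark smooth muscle, stood below the minimum mean of 1 FPKM and were not tested. FPKM is scaled to gene length, so these levels can be compared between genes. Of the 9 neighbouring pairs in this order, 3 kept it in each of the 4 libraries: TPM1 above MYL9, MYL9 above TAGLN and TPM2 above ACTA2. Another 5 kept it in 3 libraries, and ANKRD1 was above CTGF in 2.

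**Figure D1:**
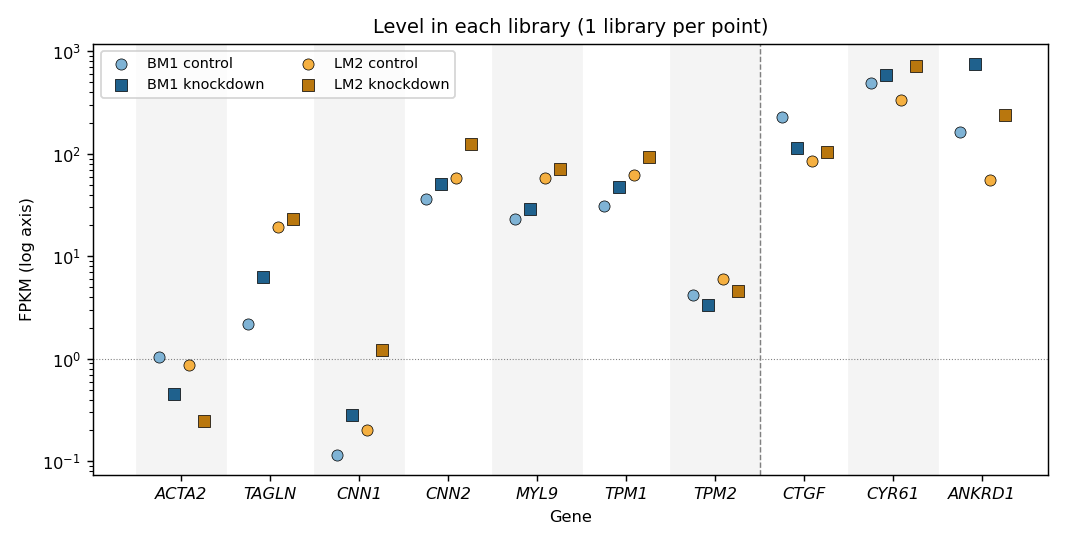
FPKM (log axis) of the 10 genes in each of the 4 libraries; circles are controls and squares knockdowns, blue is BM1 and orange LM2, the dashed line divides actin cytoskeleton genes from YAP and TEAD targets and the dotted line marks 1 FPKM. ANKRD1 was higher in the knockdown library of each line, and the 5 actin cytoskeleton genes above the filter were higher in both LM2 libraries than in both BM1 libraries.

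ANKRD1 rose with the knockdown in both lines. The gene (ENSG00000148677.6, chr10:92671853-92681033, minus strand; gene positions here and below are on GRCh37, the build in the submitters' processing notes) encodes an ankyrin repeat protein, known from muscle, where it binds titin and also enters the nucleus, and is a widely used readout of YAP. It measured 165 FPKM in control and 761 in knockdown cells of BM1, against 56.2 and 240 in LM2. The knockdown library was above the control of its own line in both lines, and both knockdowns lay above both controls. Over all tested genes, both knockdowns lay above both controls in 21.8% and below both in 22.6%. Knockdown over control, the FPKM ratio was 4.62 in BM1 and 4.26 in LM2. The average change was 2.14 ± 0.25 (log2(FPKM + 1), standard error, limma, adjusted p 0.00652, higher in 2 of 2 lines). Only 35 of 13928 tested genes had a larger average increase. ANKRD1 was the 1 member of 8 tested that passed an adjusted p of 0.05, where 5.47% of all tested genes passed, 2.71% higher and 2.76% lower. The call ended with a pseudocount of 0.1 (adjusted p 0.0599), with quantile normalization (0.0596), without the filter (0.220) and without the term that pairs libraries by line (0.394). It also ended when 1 library was left out, be it the control (0.622) or knockdown (0.817) of BM1 or the control (0.458) or knockdown (0.264) of LM2, in fits that cannot keep the pairing; the change then ranged from 1.31 to 2.97.

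CTGF (ENSG00000118523.5, chr6:132269316-132272513, minus strand) and CYR61 (ENSG00000142871.15, chr1:86046444-86049645, plus strand) encode secreted matricellular proteins of the CCN family that act through integrins. CYR61 measured 487 FPKM in control and 592 in knockdown cells of BM1, against 337 and 713 in LM2. Both knockdowns lay above both controls, as in 21.8% of all tested genes, with ratios of 1.21 in BM1 and 2.11 in LM2. The average change of 0.68 ± 0.28 (log2(FPKM + 1), standard error) was not below the threshold (limma adjusted p 0.183). CTGF measured 231 FPKM in control and 114 in knockdown cells of BM1, against 84.3 and 103 in LM2. The BM1 control stood apart above the other 3 libraries. The differences of CTGF had opposite signs, -1.005 in BM1 and 0.29 in LM2 (30.9% of all tested genes had opposite signs), with an average of -0.36 ± 0.33 (adjusted p 0.546); without the BM1 control, in a fit that lacks the pairing, the estimate was 0.36. In BM1 the ratio of these 2 CCN genes was lower after knockdown: CTGF stood at 0.473 of the CYR61 level in the BM1 control and at 0.193 in the BM1 knockdown. In LM2 the corresponding ratios were 0.250 and 0.145. CTGF overlaps RP11-69I8.3 on the opposite strand over 428 bases, and that gene was at 8.79 to 12.9 FPKM.

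**Figure D2:**
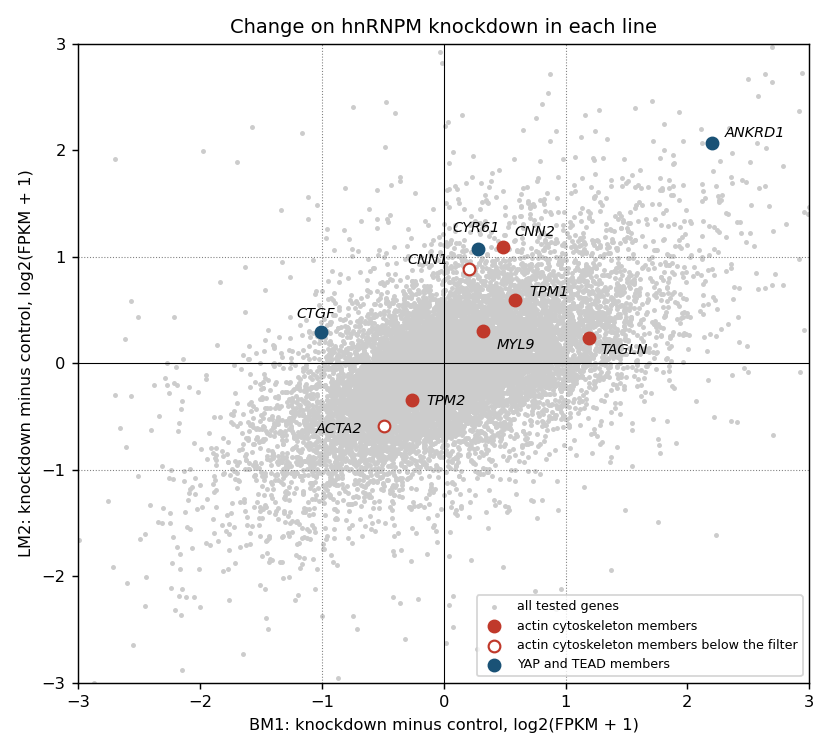
Knockdown minus control on the log2(FPKM + 1) scale in BM1 (horizontal) and LM2 (vertical) for all tested genes (grey; 51 lie outside the axes) and the 10 genes (red, actin cytoskeleton; blue, YAP and TEAD; open, below the filter); dotted lines mark a 2-fold change. ANKRD1 lies past 2-fold in both lines, and CTGF is the member with opposite signs.

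None of the 5 tested actin cytoskeleton genes passed the test of the knockdown (limma adjusted p from 0.1203 to 0.497). Of these 5 genes, 3 had an unadjusted p under 0.05, as did 3465 of all 13928 tested genes. Higher levels in the knockdown library of both lines were seen for 4 of the 5. Over all tested genes, 33% were higher and 36.2% lower in both knockdown libraries than in their own controls. The median average change of these 5 genes was 0.59, and that of all tested genes was -0.01. TAGLN (ENSG00000149591.16, chr11:117070037-117075498, plus strand) encodes transgelin, a calponin-related protein that binds and stabilises actin filaments. It measured 2.16 FPKM in control and 6.23 in knockdown cells of BM1, against 19.3 and 23.0 in LM2. The difference was larger in BM1 (ratio 2.88) than in LM2 (ratio 1.19), and the knockdown and control levels overlapped across lines. The average change was 0.72 ± 0.30 (limma adjusted p 0.181). In fits that lack the pairing, the estimate of TAGLN changed sign without the BM1 control (-0.62) or the LM2 knockdown library (-0.15). TAGLN overlaps PCSK7 on the opposite strand over 446 bases.

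CNN2 (ENSG00000064666.14, chr19:1026580-1039067, plus strand) encodes the calponin found in non-muscle cells, which binds actin and damps myosin activity. It measured 36.3 FPKM in control and 51.3 in knockdown cells of BM1, against 58.2 and 126 in LM2. The LM2 knockdown stood apart above the other 3, and the average change of 0.79 ± 0.27 was not below the threshold (adjusted p 0.1203). It ranged from 0.16 without the LM2 knockdown to 1.43 without the BM1 knockdown, in fits that lack the pairing. CNN2 overlaps AC011558.5 on the opposite strand over 338 bases, the whole length of that gene. AC011558.5 was at 55.1, 82.0, 86.3 and 162 FPKM in the same order of libraries, between 1.29 and 1.60 times CNN2. The sources used here do not say whether reads were counted by strand, so the reads of CNN2 and AC011558.5 cannot be told apart, and the same holds where the other overlapping pairs share bases.

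TPM1 (ENSG00000140416.19, chr15:63334831-63364114, plus strand) and TPM2 (ENSG00000198467.13, chr9:35681989-35691017, minus strand) encode tropomyosins, which lie along actin filaments and gate the access of myosin. TPM1 measured 31.2 FPKM in control and 47.3 in knockdown cells of BM1, against 62.0 and 94.1 in LM2. The ratio was 1.52 in each line and the average change 0.59 ± 0.25 (adjusted p 0.187), and from 0.10 (without the LM2 knockdown) to 1.08 (without the BM1 knockdown) in fits that lack the pairing. TPM2 measured 4.21 FPKM in control and 3.35 in knockdown BM1 cells, and 6.05 and 4.56 in LM2. It was the tested actin cytoskeleton gene with lower values in both knockdowns (-0.30 ± 0.25, adjusted p 0.497). TPM1 overlaps RP11-244F12.2 on the opposite strand over 1887 bases, its whole length, and that gene stood at 0.341 to 0.380 of the TPM1 level in each library. It also holds RP11-244F12.3 on the opposite strand, at 0.0338 to 0.0464 of the TPM1 level.

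MYL9 (ENSG00000101335.9, chr20:35169887-35179850, plus strand) encodes a regulatory light chain of myosin whose phosphorylation drives contraction. It measured 22.9 FPKM in control and 28.8 in knockdown cells of BM1, against 57.7 and 71.5 in LM2. The difference was 0.32 in BM1 and 0.30 in LM2, and the average of 0.31 ± 0.25 was not below the threshold (adjusted p 0.480). The estimate of MYL9 changed sign without the BM1 control (-0.34) or the LM2 knockdown library (-0.33), in fits that lack the pairing. DLGAP4-AS1 covers MYL9 on the opposite strand, and its own levels were lower in the knockdowns (18.0 and 11.0 FPKM in BM1, 14.1 and 8.91 in LM2; adjusted p 0.164).

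The 2 smooth muscle genes were close to the detection limit. ACTA2 (ENSG00000107796.12, chr10:90694831-90751147, minus strand), which encodes smooth muscle alpha-actin, measured 1.04 FPKM in control and 0.453 in knockdown cells of BM1, against 0.871 and 0.246 in LM2. Both knockdowns lay below both controls. With the annotated coding transcripts of 744 to 1349 bases and the larger step as 1 fragment, these levels correspond to about 24.2 to 43.9 fragments in the BM1 control and 5.0 to 9.1 in the LM2 knockdown. CNN1 (ENSG00000130176.7, chr19:11649532-11661138, plus strand), the smooth muscle calponin, was at 0.115, 0.285, 0.202 and 1.22 FPKM in the same order. Both knockdowns lay above both controls, at about 1.8 to 6.6 fragments in the BM1 control and 17.0 to 61.3 in the LM2 knockdown. With the smaller step as 1 fragment, the fragment numbers of ACTA2 and CNN1 would be larger. In a fit without the filter the adjusted p was 0.237 for ACTA2 and 0.345 for CNN1. ACTA2 shares long stretches of near-identical sequence with other actin genes, and it overlaps STAMBPL1, ACTA2-AS1 and FAS on the opposite strand, so its level is uncertain. ACTG2, its closest relative, measured 0.0620 FPKM in control and 0.119 in knockdown BM1 cells, and 5.74 and 0.483 in LM2.

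A fixed rule of 2-fold was applied within each line, where 1 library stands in each arm and no test is possible. In BM1 it took 3 of 8 members, where it took 16.3% of all tested genes: TAGLN and ANKRD1 upward (against 10.1%) and CTGF downward (against 6.2%). CTGF sat at the edge of the rule, at -1.005. In LM2 it took CNN2, CYR61 and ANKRD1 upward (3 of 8, against 3.83% upward and 8.06% in either direction) and none downward (against 4.24%). ANKRD1 was past it in both lines, as were 1.92% of all tested genes. The changes of TAGLN, CTGF, CNN2 and CYR61 in the 2 lines were 0.61 to 1.30 apart, while those of TPM1, MYL9, TPM2 and ANKRD1 were 0.01 to 0.13 apart. Whether any gene responded differently in the 2 lines cannot be tested with 4 libraries.

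The paralogs give a second view of the same levels; these shares were computed after the values had been seen and have no test. Of the summed FPKM of the 4 tropomyosin genes, TPM1 took 7.66% in the BM1 control and 12.0% in the BM1 knockdown. In LM2 its share went from 10.2% to 23.7%. TPM4 supplied most of the rest, at 65.4% and 66.3% in BM1 and 71.4% and 55.1% in LM2. The family sum was 407 and 394 FPKM in BM1 and 610 and 397 in LM2, so the LM2 shift went with a lower TPM4 level (436 to 219 FPKM). Of the summed calponin FPKM, CNN2 took 19.2% and 32.8% in BM1 and 28.4% and 40.7% in LM2, with CNN3 making up nearly all the rest. TPM2 and CNN1 stayed at or below 1.15% and 0.394% of their families in every library.

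**Figure D3:**
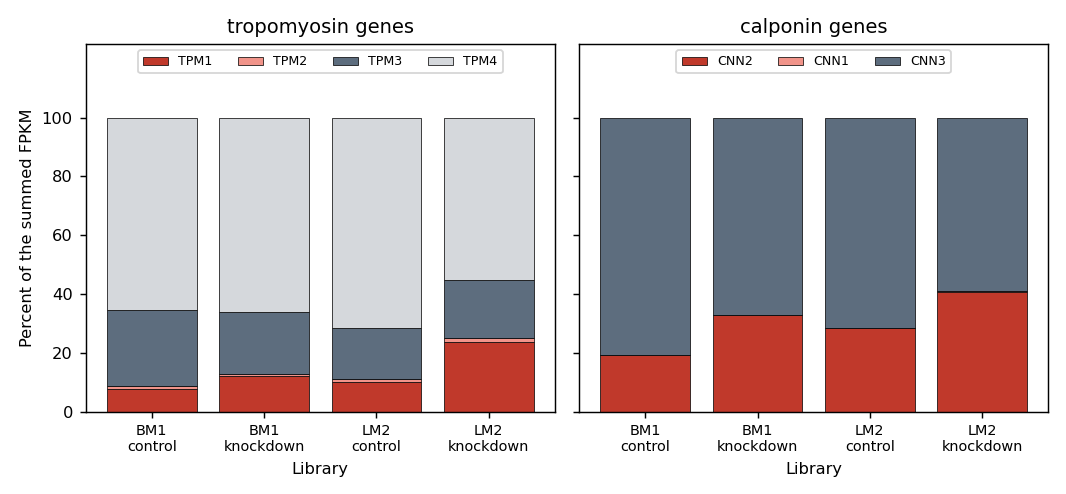
Share of the summed FPKM of the tropomyosin genes (left) and calponin genes (right) that each gene took in each of the 4 libraries. TPM1 and CNN2, in dark red, took a larger share in the knockdown library of each line, up to 23.7% and 40.7% in LM2.

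Between the lines, 3 of 8 members passed the test, where 4.35% of all tested genes did: TAGLN and MYL9 were higher in LM2 (2.31% of all tested genes) and ANKRD1 was lower (2.04%). All 5 tested actin cytoskeleton genes were higher in both LM2 libraries than in both BM1 libraries, where 19.4% of all tested genes were. TAGLN showed the widest gap, with LM2 8.91 times BM1 between controls and 3.68 times between knockdowns. Its average difference was 2.204 ± 0.30 (LM2 minus BM1, log2(FPKM + 1), standard error, limma, adjusted p 0.00625), the 45th largest increase among 13928 genes. MYL9 was higher by 1.29 ± 0.25 (adjusted p 0.0270), with ratios of 2.52 between controls and 2.48 between knockdowns. TPM1 (0.97 ± 0.25, adjusted p 0.0681), CNN2 (0.97 ± 0.27, 0.0840) and TPM2 (0.40 ± 0.25, 0.394) were not below the threshold. TPM1 passed it with median-of-ratios size factors (0.0421) or an intensity trend in limma (0.0379), and CNN2 with the trend (0.0499).

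ANKRD1 was lower in LM2. Between controls BM1 held 2.93 times the LM2 level and between knockdowns 3.18 times, an average difference of -1.60 ± 0.25 (limma adjusted p 0.0118). The levels of the 2 lines still overlapped, since the LM2 knockdown library (240 FPKM) was above the BM1 control (165 FPKM). CTGF was lower in both LM2 libraries than in both BM1 libraries, as were 21.6% of all tested genes. Its difference was -1.44 between controls and -0.14 between knockdowns (average -0.79 ± 0.33, adjusted p 0.205). CYR61 was at -0.53 between controls and 0.27 between knockdowns (adjusted p 0.828). By the 2-fold rule, with no test, 4 of 8 members differed between the controls, against 12.2% of all tested genes: TAGLN and MYL9 were higher (6.98%) and CTGF and ANKRD1 lower (5.26%) in LM2. Between the knockdowns the rule took 4 of 8 members, against 9.04% of all tested genes: TAGLN, CNN2 and MYL9 higher (4.41%) and ANKRD1 lower (4.63%).

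The calls between lines ended under several settings. The adjusted p of TAGLN, MYL9 and ANKRD1 was 0.0579, 0.102 and 0.0701 with a pseudocount of 0.1, 0.0521, 0.0724 and 0.0643 with quantile normalization, and 0.213 for each without the filter. Each of the 4 libraries in turn was left out, in fits that also lack the treatment term; it then ranged from 0.115 to 0.478 for TAGLN, from 0.257 to 0.9997 for MYL9 and from 0.426 to 0.9997 for ANKRD1. The signs held in each of these fits, and the difference of ANKRD1 ranged from -2.70 to -0.50.

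**Figure D4:**
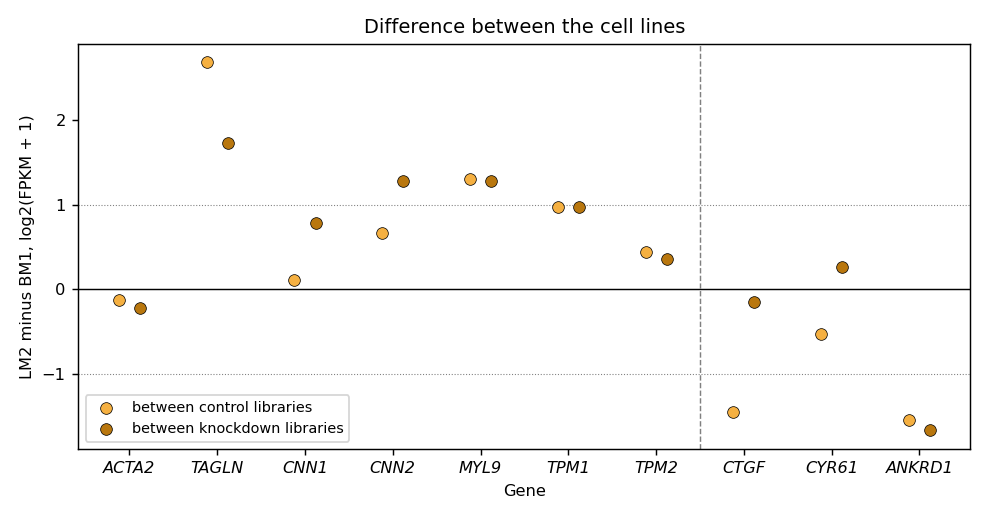
LM2 minus BM1 on the log2(FPKM + 1) scale for each of the 10 genes, between the control libraries (light) and between the knockdown libraries (dark); dotted lines mark a 2-fold difference and the dashed line divides actin cytoskeleton genes from YAP and TEAD targets. TAGLN, CNN2, MYL9, TPM1 and TPM2 are above 0 in both comparisons, and CTGF and ANKRD1 are below 0 in both.

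Markers of contractile and stromal cells were read beside these differences. Of 7 smooth muscle markers, 5 had an entry (MYOCD and DES were not analysed here). Their summed level was 35.6 and 13.1 FPKM in the BM1 control and knockdown and 38.2 and 20.8 FPKM in LM2, mostly from SMTN, which many cell types express and which was lower in both knockdowns (adjusted p 0.0776). MYH11, which defines smooth muscle, lay between 0.195 and 1.78 FPKM, and LMOD1 and SYNPO2 did not exceed 0.269. ACTG2 was at 0.0620 and 0.119 FPKM in BM1 and 5.74 and 0.483 in LM2, above 1 FPKM in the LM2 control alone. Its limma adjusted p was 0.196 for the knockdown and 0.0965 between lines. Of 8 fibroblast and pericyte markers 7 had an entry, with a summed level of 11.1, 21.8, 35.8 and 86.5 FPKM in the same order of libraries. Most of that sum in LM2 came from COL1A1, which was higher in the knockdowns (1.67 ± 0.28, limma adjusted p 0.0170) and in LM2 (3.001 ± 0.28, adjusted p 0.00109). The defining fibroblast markers PDGFRA, LUM and COL3A1 did not exceed 1.61 FPKM, and DCN was not analysed here. All 3 had higher values in the knockdown of each line: LUM was at 0.0213 and 0.465 FPKM in BM1 and 0.0239 and 1.61 in LM2, and COL3A1 was at 0.0288 and 0.182 in BM1 and 0.0688 and 0.525 in LM2. PDGFRA was at 0.177 and 0.250 FPKM in BM1 and 0.00733 and 0.0223 in LM2. PDGFRB, a pericyte marker, was at 1.37 and 3.24 FPKM in BM1 and 0.699 and 2.93 in LM2 (1.02 ± 0.26, adjusted p 0.0568). CSPG4 was lower in the knockdown of BM1 (5.33 and 3.61 FPKM) and higher in that of LM2 (3.10 and 3.68; -0.13, limma adjusted p 0.802). The entries of RGS5 changed by 0.36 and 0.11 (limma adjusted p 0.407 and 0.818). Of 5 luminal and receptor markers tested, KRT8, an epithelial keratin, was the 1 called with the knockdown, where 5.47% of all tested genes were. It was at 398 and 1181 FPKM in BM1 and 485 and 1083 in LM2 (1.36 ± 0.26, limma adjusted p 0.0253). KRT18 and EPCAM also had higher values in the knockdown of each line (0.97 and 0.23, adjusted p 0.0750 and 0.622). GATA3 and ERBB2 had lower ones (-0.13 and -0.45, adjusted p 0.787 and 0.315). None of 4 markers of MDA-MB-231 was called, beside the same share. Of these, VIM was at 2354 and 1160 FPKM in BM1 and 1575 and 1795 in LM2. The part of such cells in the differences of the 10 genes was not tested.

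The wider SRF programme was read from a list. Of 33 other SRF and MRTF targets, 32 were tested; none was called higher with the knockdown and 1 was called lower. These counts stand beside 2.71% called higher and 2.76% called lower over all tested genes. Their median change was -0.32, with 23 of 32 genes below 0, where that of all tested genes was -0.01, with 50.8% below 0. The called gene was FHL1, a LIM domain protein of actin structures, at 54.8 and 20.6 FPKM in BM1 and 5.97 and 2.66 in LM2 (-1.15 ± 0.26, limma adjusted p 0.0423). CSRP1, another LIM protein, was at 17.7 and 13.6 FPKM in BM1 and 69.1 and 13.7 in LM2 (adjusted p 0.0984). CALD1, which encodes the actin-binding caldesmon, was at 5.63 and 23.5 FPKM in BM1 and 33.8 and 54.2 in LM2 (1.28 ± 0.32, adjusted p 0.0581). The cytoplasmic actin gene ACTB was at 1302 and 938 FPKM in BM1 and 1427 and 1176 in LM2 (adjusted p 0.393).

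Between the lines, CALD1 was the 1 gene of this list called higher in LM2 (1.78 ± 0.32, adjusted p 0.0215), where 2.31% of all tested genes were. FHL1 (-2.78 ± 0.26, adjusted p 0.00110), FLNC, which encodes a muscle filamin (-1.39, 0.0211), and MYH10, which encodes a non-muscle myosin heavy chain (-1.18, 0.0445), were called lower, where 2.04% of all tested genes were. ACTG2 had the third largest difference by size (1.54, adjusted p 0.0965). The median difference of the list was 0.22. The TCF arm of SRF, which serves growth signals, was thinly covered, with 4 of 8 genes tested and none called in either comparison. Over all tested genes 5.47% were called for the knockdown and 4.35% between the lines. EGR1, FOS and IER2 had lower values in the knockdown of both lines, with changes of -0.68, -0.46 and -0.53 (adjusted p 0.141, 0.315 and 0.238), while MCL1 was at 0.06.

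Among 21 other YAP and TEAD targets, all tested, 2 were called higher with the knockdown and none lower, against 2.71% and 2.76% of all tested genes. The median change was 0.15, against -0.01 over all tested genes. F3, which encodes the clotting initiator tissue factor, measured 74.4 FPKM in control and 388 in knockdown cells of BM1, against 87.4 and 347 in LM2. Both knockdowns lay far above both controls (2.17 ± 0.26, limma adjusted p 0.00653), beside 2.14 for ANKRD1. TGFB2, a ligand of the TGF-beta family, was at 6.65 and 27.3 FPKM in BM1 and 13.5 and 34.8 in LM2 (1.60 ± 0.27, adjusted p 0.0178). AMOTL1, a junctional protein that binds YAP, was at 12.4 and 6.34 FPKM in BM1 and 18.5 and 7.38 in LM2 (-1.04 ± 0.26, adjusted p 0.0525). Between lines NT5E (1.42, adjusted p 0.0265) and RBMS3 (1.21, 0.0441) were called higher in LM2, PTPN14 was at 0.93 (0.0780), and none was called lower; over all tested genes 2.31% were called higher and 2.04% lower.

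Of the other CCN genes, WISP2 was at 0.126 and 3.91 FPKM in BM1 and 0.0262 and 2.16 in LM2 control and knockdown, and it was called higher (1.87 ± 0.26, adjusted p 0.0114). Since WISP2 stayed under 1 FPKM in both controls, it passed the filter through its knockdown libraries alone, where it was higher. NOV was at 4.75 and 38.7 FPKM in BM1 and 2.71 and 5.16 in LM2 (1.76 ± 0.43, adjusted p 0.0510). Neither differed between the lines below the threshold (-0.39, adjusted p 0.433, and -1.66, 0.0688).

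The genes upstream of YAP and TEAD were then read. Of 18 Hippo pathway and TEAD genes, VGLL3, a cofactor that binds TEAD, was the 1 called with the knockdown, a share near the 5.47% of all tested genes. It was at 0.286 and 3.29 FPKM in BM1 and 1.49 and 5.36 in LM2 (1.54 ± 0.26, limma adjusted p 0.0175). The mean of VGLL3 reached the minimum of 1 FPKM only through the knockdowns, in which it was higher. TEAD1 was at 12.7 and 45.9 FPKM in BM1 and 24.5 and 31.4 in LM2 (1.06 ± 0.35, adjusted p 0.111), and the kinase gene LATS1 at 2.45 and 7.13 in BM1 and 5.23 and 8.44 in LM2 (0.92, 0.0871). YAP1 itself lay between 45.1 and 71.2 FPKM and WWTR1, which encodes TAZ, between 8.22 and 20.7, and neither passed (adjusted p 0.691 and 0.146). NF2 stayed between 1.36 and 2.74 FPKM. Between the lines TEAD3 (2.33 ± 0.27, limma adjusted p 0.00270), MOB1B (1.41, 0.0270) and STK3 (1.16, 0.0410) were called higher in LM2 (2.31% of all tested genes). AMOT (-1.46, 0.0220) was called lower (2.04%). AMOT was at 2.73 and 1.49 FPKM in BM1 and 0.109 and 0.105 in LM2. Its mean reached the minimum of 1 FPKM only through BM1, the line in which it was higher. TEAD3 was at 10.4 and 9.56 FPKM in BM1 and 46.7 and 62.9 in LM2. Any link of TEAD3 to the levels of ANKRD1, CTGF and CYR61 was not tested.

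SRF and its coactivators were not called. SRF was at 28.98 and 30.6 FPKM in BM1 and 17.5 and 20.6 in LM2 (limma adjusted p 0.758). MKL1 and MKL2, which encode the MRTF coactivators, were at changes of 0.27 and 0.25 (adjusted p 0.590 and 0.584), and MYOCD was not analysed here.

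**Figure D5:**
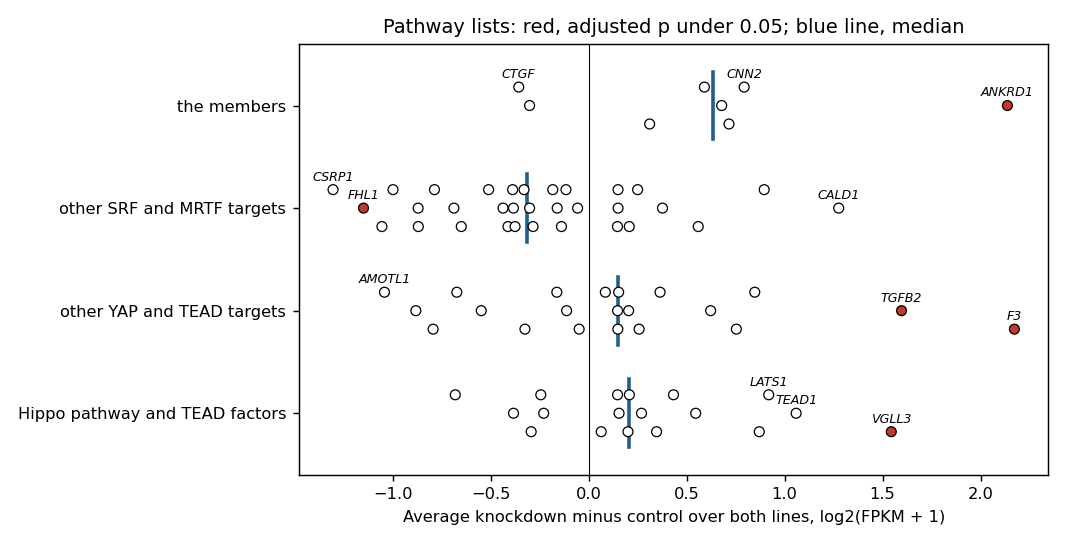
Average knockdown minus control over both lines, on the log2(FPKM + 1) scale, for each tested gene of the 10 and of 3 lists; red points have a limma adjusted p under 0.05 and blue lines are medians. ANKRD1, F3, TGFB2 and VGLL3 are called higher and FHL1 lower.

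The genes with the most similar pattern over the 4 libraries were found by the Euclidean distance between log2(FPKM + 1) values centred on each gene's mean. For CNN2, the actin cytoskeleton gene with the largest knockdown change by size among those tested, they were FBN1 (0.0870), CTD-2078B5.2 (0.0924) and IL32 (0.101), against a median distance of 1.44 over all tested genes. FBN1, which encodes the matrix protein fibrillin, was at 5.34 and 7.82 FPKM in BM1 and 8.57 and 19.0 in LM2. For ANKRD1 they were ZNF114 (0.334), MTUS1 (0.421) and FST (0.437), against a median of 2.73. FST, which encodes the activin inhibitor follistatin, was at 51.6 and 269 FPKM in BM1 and 26.4 and 91.1 in LM2. With 4 libraries many genes lie close to any given pattern, so these names are a description.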

How the data were processed

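The authors deposited 1 table of FPKM values per gene, with 1 column per library. STAR 2.5.3a, Cuffdiff 2.2.1 and GRCh37 are named in the submitters' processing notes, with no role stated; the sources used here give neither the annotation release nor the strand setting. Per the labels' protocols, Trizol was used for extraction, and the polyA libraries were stranded and read from both ends. Of 20369 entries, 40 under 3 repeated gene IDs were left out. The 13928 genes whose mean reached 1 FPKM were tested on log2(FPKM + 1), a scale that understates changes of low genes, with limma 3.58.1 (R 4.3.3), terms for line and treatment, and 1 residual degree of freedom. That residual is the gap between the changes of the 2 lines, moderated over all genes. P-values were two-sided and Benjamini-Hochberg adjusted over all tested genes, with a threshold of 0.05. With 2 pairs an exact permutation test cannot go below 0.5. The line pairs each knockdown with its control (same cell line; r = 0.545 across genes between deviations of the libraries of a line). Within a line a 2-fold rule was used, with no test. Depth was read from steps in FPKM times transcript length (1623 genes with 1 transcript in GENCODE 29). Of the values, 35.9% to 44.0% lay within 0.02 of a whole larger step and 48.6% to 57.9% of a whole smaller step. The absolute depth was thus not settled, and no count test was run. The scripts were checked on simulated data. Alternatives were pseudocounts of 0.1 and 0.5, no filter or a minimum of 5 FPKM, size factors, quantile normalization, an intensity trend, fits without pairing, each library left out, and a 1.5-fold rule. Named genes were all members, HNRNPM, genes overlapping a member, and from each list the 3 tested genes with the largest change and the 3 with the largest difference between lines; the 3 nearest genes in pattern were added for CNN2 and ANKRD1. Paralogs, cell markers, cofactors and the other called list genes fall outside that rule and were chosen after their values were seen. The members and lists were chosen with earlier results of these data known, so no p is adjusted over a list alone. The result of 1 further list is not reported here.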

Additional observations from a re-analysis of the deposited data

Results flagged for a closer look

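CTGF was set apart because its difference on knockdown had opposite signs in the 2 lines. The control and knockdown libraries held 231 and 114 FPKM in BM1 but 84.3 and 103 in LM2. The BM1 change minus the LM2 change was -1.3 on the log2(FPKM + 1) scale, with 1 library per arm in each line. The difference between the lines was not tested, because 4 libraries leave no degrees of freedom for it, and 30.9% of all tested genes had opposite signs.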

How the results depend on the processing

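With 4 libraries the calls depended on the settings, while the sign of each member held in every fit of all 4 libraries. For the knockdown, limma called 762 of 13928 genes, and 1 of 8 members, ANKRD1. These counts were 27 and 0 with a pseudocount of 0.1, 0 and 0 without the filter, 0 and 0 with quantile normalization, and 0 and 0 with no replicate block, that is without pairing by line; size factors gave 1271 genes and kept ANKRD1 as the 1 member. The HNRNPM call ended under the same settings as that of ANKRD1 (adjusted p from 0.0550 to 0.613). At an unadjusted p under 0.05 the fits with 0 calls gave 3735, 3255 and 1548 genes, in the same order. Leaving out any 1 library gave 0 genes and 0 members, with 860 to 1943 genes at an unadjusted p under 0.05. Between lines limma called 606 genes and 3 members. The counts were 216 and 0 with a pseudocount of 0.1, 0 and 0 without the filter (3634 unadjusted), 104 and 0 with quantile normalization, and 11 and 0 without the treatment term; size factors gave 986 genes and 4 members, and the intensity trend gave 5 members. Leaving out any 1 library gave 6 to 28 genes and 0 members. Pseudocount 0.5 and a minimum of 5 FPKM kept ANKRD1 for the knockdown and TAGLN, MYL9 and ANKRD1 between lines. Within lines the 2-fold counts were 2264 genes in BM1 and 1123 in LM2, and the 1.5-fold rule gave 5262 and 3418. In LM2 they were 1824 with a pseudocount of 0.1 and 722 with the minimum of 5 FPKM. The members past the 2-fold rule numbered 3 in each line, and CTGF dropped out of it with quantile normalization. Signs of single members reversed only when a library was left out. Those fits also lack the line term for the knockdown change and the treatment term for the line difference. Within the lines, TAGLN (1.19 in BM1, 0.24 in LM2) and MYL9 (0.32 and 0.30) had positive changes. Without a library, the knockdown change ranged from -1.08 to 0.36 for CTGF and from -0.34 to 0.96 for MYL9. It ranged from -0.62 to 2.06 for TAGLN, and the line difference from -0.67 to 0.41 for CYR61. The knockdown change ranged from 0.41 to 0.94 for CYR61 and from -0.52 to -0.08 for TPM2. The line difference ranged from 0.42 to 1.52 for CNN2, from 0.68 to 1.27 for TPM1, from 0.23 to 0.57 for TPM2 and from -1.30 to -0.29 for CTGF. The HNRNPM change kept its sign throughout. Why the calls changed between settings was not tested. Depth limits ACTA2 and CNN1, which rest on few fragments.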
